A study of Mus musculus with 16 samples.

Results

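The 10 genes described here are transcriptional targets of the tumour suppressor p53 or are induced when cells stop dividing: Cdkn1a, Mdm2, Ccng1, Btg2, Bbc3, Trp53inp1, Sesn1, Gadd45a, Gadd45b and Gadd45g. They were taken by symbol from the array platform's annotation, which gave 22 probes for the 10 genes, out of 25697 probes and 16593 gene symbols on the array. RNA came from livers of male FVB mice aged 10 weeks. Wild-type mice and mice with a liver-specific knockout of LKB1, labelled LKB1 lox/lox, received mineral oil, carbon tetrachloride (CCl4), saline or AICAR, which made 8 groups of 2 arrays. LKB1 is the kinase, encoded by Stk11, that switches on the energy sensor AMPK. CCl4 is a liver toxicant given in oil, and AICAR is a nucleoside whose phosphorylated form activates AMPK. The sources used here do not give the Cre driver, the doses, the interval between treatment and sampling, or where in its gene each probe lies. Replicate arrays are labelled biological but not tied to separate animals, so each p-value measures the spread between these samples, which may be technical.

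In unstressed cells p53 is kept low by Mdm2, a ubiquitin ligase that p53 itself induces, so the pathway limits its own activity. DNA damage, oncogene signals and energy stress release p53, and its targets then arrest the cell cycle, aid repair and metabolic adjustment, or start apoptosis. LKB1 and AMPK act upstream, since AMPK can phosphorylate p53, while stress kinases of the JNK and p38 families can induce several of the same genes without p53. Resting hepatocytes rarely divide, and in rodent liver Cdkn1a is known to restrain hepatocyte proliferation after injury.

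RefSeq promoter windows, the 250 bases before a transcription start in GRCm38.p6, were found for 9 of the 10 genes, 13 windows in all. They are shown because the genes are grouped by their link to p53. A p53 site is built of half-sites, and a match to the half-site consensus occurred in 5 of the 13 windows, against 7.13% of all 32851 mouse windows. The genes were chosen for that link, and the Bbc3 windows of start sites 2 and 3 overlap, so these shares are not a test. Sequence outside the windows was not searched. The matches are in capitals below. The windows are chr17:29090729-29090978 on the plus strand for Cdkn1a (start site 1), chr10:117710759-117711008 on the minus strand for Mdm2, chr11:40755287-40755536 on the minus strand for Ccng1, chr6:67037408-67037657 on the minus strand for Gadd45a, and chr10:41887189-41887438 on the plus strand for Sesn1 (start site 2).
Cdkn1a: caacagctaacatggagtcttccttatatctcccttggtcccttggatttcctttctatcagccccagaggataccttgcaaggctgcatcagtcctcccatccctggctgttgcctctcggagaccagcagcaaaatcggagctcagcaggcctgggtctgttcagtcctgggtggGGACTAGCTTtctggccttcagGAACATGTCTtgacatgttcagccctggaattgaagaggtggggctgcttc
Mdm2: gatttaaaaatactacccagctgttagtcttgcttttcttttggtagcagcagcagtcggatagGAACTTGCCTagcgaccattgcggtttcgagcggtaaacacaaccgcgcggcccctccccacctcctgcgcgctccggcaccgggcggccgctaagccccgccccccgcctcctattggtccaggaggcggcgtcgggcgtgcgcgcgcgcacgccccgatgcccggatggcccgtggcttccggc
Ccng1: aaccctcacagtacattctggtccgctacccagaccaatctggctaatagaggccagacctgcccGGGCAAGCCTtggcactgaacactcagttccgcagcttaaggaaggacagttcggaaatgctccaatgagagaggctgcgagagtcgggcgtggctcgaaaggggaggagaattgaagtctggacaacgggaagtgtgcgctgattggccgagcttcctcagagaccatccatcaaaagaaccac
Gadd45a: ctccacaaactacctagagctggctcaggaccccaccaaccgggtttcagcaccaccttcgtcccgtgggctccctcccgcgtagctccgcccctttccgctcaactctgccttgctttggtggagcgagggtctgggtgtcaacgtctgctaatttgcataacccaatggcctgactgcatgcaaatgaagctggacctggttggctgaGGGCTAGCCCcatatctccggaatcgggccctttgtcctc
Sesn1: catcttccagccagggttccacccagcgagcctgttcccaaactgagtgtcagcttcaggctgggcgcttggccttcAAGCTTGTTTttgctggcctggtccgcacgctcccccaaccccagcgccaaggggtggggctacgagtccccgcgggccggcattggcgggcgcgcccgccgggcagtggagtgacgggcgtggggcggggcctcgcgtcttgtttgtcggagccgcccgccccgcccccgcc

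The Cdkn1a window held 2 matches, GGACTAGCTT from 73 to 64 bases before the start and GAACATGTCT from 51 to 42 bases before it. The Mdm2 match lay 186 to 177 bases before the start, that of Ccng1 185 to 176, that of Gadd45a 40 to 31 and that of Sesn1 173 to 164. The Gadd45a window also held 2 copies of the octamer ATTTGCAT, searched on both strands, which 1.6% of all windows contain, and a CCAAT box, which 33.8% contain. The Gadd45g window held 1 octamer and a TATA box (TATAAA, in 12.4% of windows), the Gadd45b window a TATA box and 2 CCAAT boxes. The Btg2 window held 2 CCAAT boxes and the letters TGACG of a cAMP response half-site on each strand, overlapping each other, which 17.8% of windows hold on at least 1 strand. A match describes the letters of a window and no binding was measured.

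The targeted gene was lower in the knockout arrays: Stk11 differed by -1.04 ± 0.10 (SE) on the log2 scale over all 4 agents (limma adjusted p = 0.00015), and by -1.16, -1.14, -0.91 and -0.94 in oil, saline, CCl4 and AICAR. The median probe signal was 172.4 to 213.7 and 12233 to 13730 probes were detected per array. The 2 knockout saline arrays stood apart: differences between 2 probes of the same gene were uncorrelated between them (r = 0.011 across 1904 genes, against 0.471 for the next lowest of all array pairs), so they differed by less than the measurement noise and were counted as 1 sample. With 2 arrays per group, their number sets the precision. All values below are normalized log2 intensities of 1 probe per gene, the brightest. Differences are given ± SE from a limma model over 15 samples and 11338 features (a gene, or a probe without a symbol), with p adjusted by Benjamini and Hochberg over all of them and a threshold of 0.05. Of the 10 genes, 9 had a probe detected on at least 2 arrays and were tested. Btg2 was not.

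Under AICAR the knockout livers differed from the wild-type livers in 5 of the 9 genes tested. Cdkn1a, Gadd45a and Trp53inp1 were higher in the knockout, Bbc3 and Sesn1 were lower. In the same comparison 7.53% of all features passed, 456 higher and 398 lower. The median difference of the 9 genes was 0.62, with 7 above 0, and that of all features was -0.04. The arrays of the 2 groups did not overlap for 8 of the 9 genes, Gadd45b being the exception, but this was so for 57.4% of all features. The genes were chosen with earlier results of these data known, so these shares and medians are not a test.

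**Figure D1:**
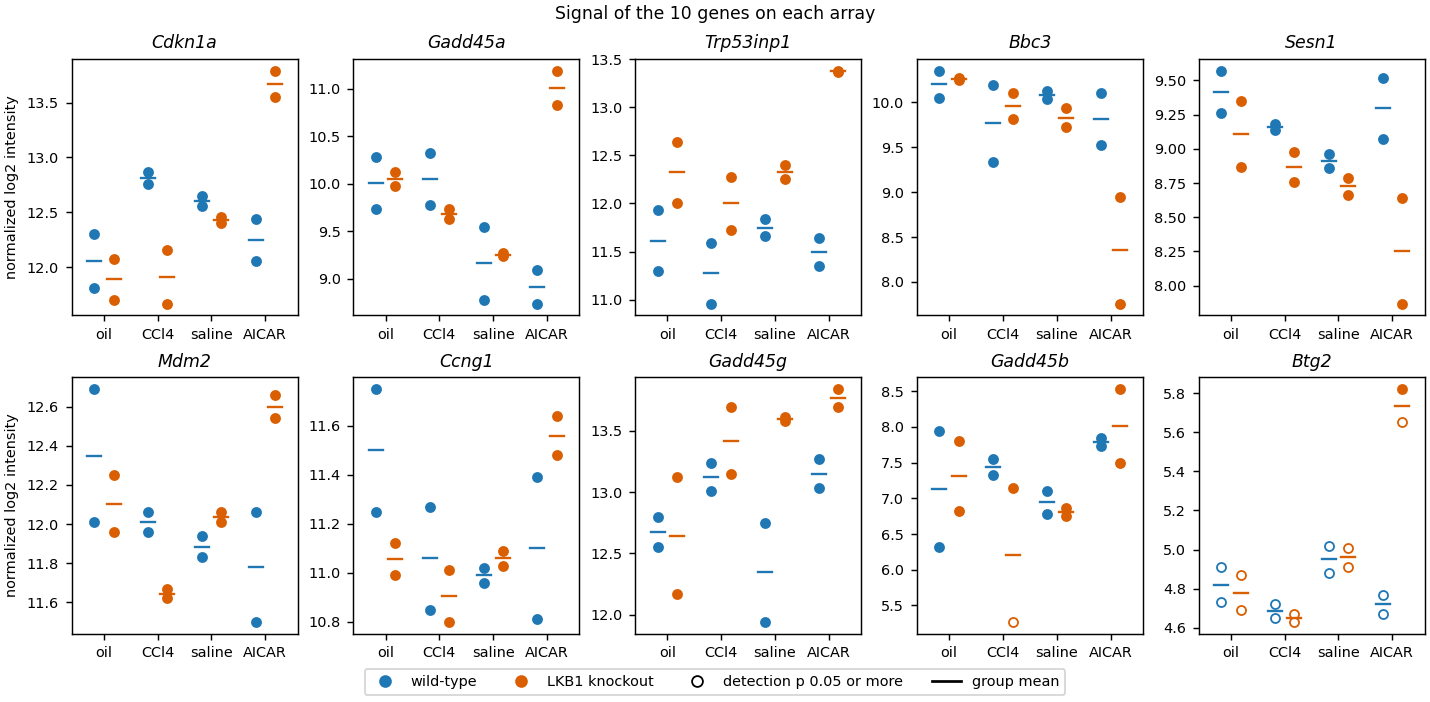
Normalized log2 intensity of each of the 10 genes (1 probe each) on each array by agent, with wild-type arrays in blue, knockout arrays in orange, open circles for arrays where the probe was not detected, and lines at group means. The knockout AICAR group has the highest mean for 8 genes, Btg2 included, and the lowest for Bbc3 and Sesn1. For Ccng1 the mean is 11.56 against 11.5 in wild-type oil, and the Btg2 probe was detected on 1 array. The share of all features with their highest or lowest mean in this group was not counted.

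Cdkn1a (chr17:29090979-29100722 in GRCm38.p6) encodes p21, the inhibitor of cyclin-dependent kinases through which p53 holds cells before DNA synthesis. Its signal was 13.79 and 13.55 on the knockout AICAR arrays, 12.44 and 12.06 on the wild-type AICAR arrays, 12.40 and 12.46 in knockout saline and 12.56 and 12.65 in wild-type saline. Both knockout AICAR arrays lay above every other array of the study. The knockout exceeded the wild-type under AICAR by 1.42 ± 0.25 (2.67-fold, limma adjusted p = 0.0075), a call lost without the second wild-type AICAR array (adjusted p = 0.078) or the first knockout AICAR array (0.06). From saline to AICAR it differed by 1.24 ± 0.31 in the knockout (limma adjusted p = 0.092) and by -0.36 ± 0.25 in the wild-type. The arrays thus moved apart in opposite directions, and the difference between these responses was 1.59 ± 0.40 (limma adjusted p = 0.19).

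The other agent pair gave Cdkn1a a different order. Under CCl4 the wild-type arrays read 12.76 and 12.87 and the knockout arrays 11.67 and 12.16, while in oil the wild-type read 12.30 and 11.81 and the knockout 11.70 and 12.08. The wild-type CCl4 arrays were thus above all 6 other arrays of the oil and CCl4 groups. The knockout minus wild-type difference under CCl4 was -0.90 ± 0.25 (limma adjusted p = 0.14) and the wild-type response to CCl4 was 0.76 ± 0.25 (limma adjusted p = 0.45), so neither passed. The group means ran from 13.67 in knockout AICAR down to 11.89 in knockout oil, and the within-group SD was 0.25.

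Mdm2 (chr10:117688875-117710758), the ligase that targets p53 for destruction, read 12.66 and 12.54 in knockout AICAR and 12.06 and 11.50 in wild-type AICAR, groups that did not overlap. The difference of 0.82 ± 0.25 did not pass (limma adjusted p = 0.076), and over the alternatives its adjusted p ran from 0.047 to 0.097. Its arrays in oil spanned 11.96 to 12.69, and the wild-type oil array at 12.69 was the highest of the study. A second Mdm2 probe detected on all arrays differed by 1.03 ± 0.24 and passed when every kept probe was tested as its own feature (limma adjusted p = 0.029), while the probe above did not (adjusted p = 0.081).

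Ccng1 (chr11:40748552-40755309) encodes cyclin G1, a p53 target that recruits a phosphatase to Mdm2. The probe used read 11.48 and 11.64 in knockout AICAR and 11.39 and 10.81 in wild-type AICAR, a difference of 0.46 ± 0.25 (limma adjusted p = 0.3). Its 2 other probes, both detected on all 16 arrays, differed by -0.12 ± 0.24 and -0.02 ± 0.26, so the 3 probes of this gene disagreed in sign and none passed. Across the 15 samples Mdm2 and Ccng1 had the highest correlation of any pair among the 9 genes, r = 0.87, as a description of samples that share groups.

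Btg2 (chr1:134074865-134079155) encodes an antiproliferative protein of the BTG/Tob family that binds the CCR4-NOT deadenylase. Its only probe was detected on 1 of the 16 arrays, the second knockout AICAR array at 5.82, and read 5.65 on the other. The remaining 14 arrays lay between 4.63 and 5.02 and were not above background. With no filter on detection the gene was called between the genotypes under AICAR (limma adjusted p = 0.0035 over 18312 features), which rests on a probe above background on that 1 array.

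Bbc3 (chr7:16308398-16318334) encodes PUMA, which binds anti-apoptotic Bcl-2 proteins and is a main route from p53 to apoptosis. It read 8.94 and 7.76 on the knockout AICAR arrays, the lowest values of the study, and 10.10 and 9.52 on the wild-type AICAR arrays. The other 12 arrays lay between 9.34 and 10.35. The knockout minus wild-type difference was -1.46 ± 0.38 (0.364-fold, limma adjusted p = 0.043), and AICAR minus saline in the knockout was -1.48 ± 0.47 (limma adjusted p = 0.19). The 2 knockout AICAR arrays differed from each other by more than the wild-type pair, and the difference was -2.05 without the first and -0.86, no longer called, without the second. Of its other probes, one detected on all 16 arrays but dim differed by 0.12 ± 0.25 and one detected on 7 arrays by -0.87 ± 0.33. The call therefore rested on 1 of 3 probes, and it held in 7 of the 16 fits that each left out 1 array.

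Trp53inp1 (chr4:11156441-11174379) encodes a stress-induced nuclear protein that p53 induces and that takes part in cell death and autophagy. The knockout arrays read 13.37 and 13.38 under AICAR, 12.25 and 12.40 in saline, 12.01 and 12.64 in oil and 11.72 and 12.28 under CCl4. The wild-type arrays read 11.64 and 11.35, 11.84 and 11.66, 11.30 and 11.93, and 11.59 and 10.96 under the same agents. On the probe used, the knockout arrays were above the wild-type arrays under each of the 4 agents. This held for 1 of the 9 genes and, in either direction, for 5.56% of all features, with both knockout saline arrays taken singly. The difference averaged over the agents was 0.97 ± 0.17 (1.96-fold, limma adjusted p = 0.0047). It was the one gene of the 9 called there, where 9.21% of features passed.

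By agent, the knockout minus wild-type difference of Trp53inp1 was 0.71 ± 0.31 in oil (limma adjusted p = 0.31), 0.57 ± 0.38 in saline, 0.73 ± 0.31 under CCl4 (limma adjusted p = 0.4) and 1.88 ± 0.31 under AICAR (3.68-fold, limma adjusted p = 0.0059). Without the second wild-type AICAR array the last value was 1.73 (adjusted p = 0.058). The value under AICAR exceeded that in saline by 1.31 ± 0.50, which did not pass (limma adjusted p = 0.45). A second probe differed by 2.20 ± 0.39 under AICAR and also passed over all kept probes (limma adjusted p = 0.0085). In oil this second probe read 10.69 and 11.33 in the knockout and 10.32 and 11.02 in the wild-type, so there its groups overlapped.

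Sesn1 (chr10:41810574-41908436) encodes sestrin 1, a p53 target that activates AMPK and restrains mTORC1. It read 7.87 and 8.64 in knockout AICAR and 9.07 and 9.52 in wild-type AICAR. The knockout AICAR arrays were the 2 lowest of the study, the nearest other array reading 8.66. The difference was -1.04 ± 0.28 (0.486-fold, limma adjusted p = 0.048), and over all 4 agents it was -0.45 ± 0.15 (limma adjusted p = 0.085). From saline to AICAR the wild-type differed by 0.38 ± 0.28 and the knockout by -0.47 ± 0.34. The difference between the responses, -0.86 ± 0.44, did not pass (limma adjusted p = 0.6). The call under AICAR held in 7 of the 16 fits that each left out 1 array. The second probe of Sesn1 was detected on 1 array.

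The Gadd45 proteins are small stress sensors that bind and activate MEKK4, upstream of p38 and JNK, and that take part in growth arrest and DNA repair. Gadd45a (chr6:67035096-67037407), the member classically induced by p53, read 11.19 and 10.83 in knockout AICAR and 9.09 and 8.74 in wild-type AICAR. Every other array of the study lay at or below 10.32. The difference of 2.10 ± 0.30 (4.28-fold, limma adjusted p = 0.0025) was the largest in size among the 9 genes. Its second probe differed by 1.87 ± 0.37 (limma adjusted p = 0.015 over all kept probes).

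In saline Gadd45a read 9.24 and 9.27 in the knockout and 8.78 and 9.55 in the wild-type. AICAR minus saline was 1.76 ± 0.37 in the knockout (3.38-fold, limma adjusted p = 0.051) and -0.25 ± 0.30 in the wild-type, and the difference between them was 2.01 ± 0.48 (limma adjusted p = 0.16). In oil and CCl4 the arrays read 9.63 to 10.32, above the saline arrays at 8.78 to 9.55. Oil minus saline was 0.82 ± 0.24 (limma adjusted p = 0.27), and the vehicles cannot be told apart from whatever else differed between the oil and saline mice.

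Gadd45g (chr13:51846675-51848475), a cytokine-inducible member, read 13.69 and 13.84 in knockout AICAR and 13.03 and 13.27 in wild-type AICAR, a difference of 0.62 ± 0.34 (limma adjusted p = 0.3). In saline the knockout read 13.58 and 13.61 and the wild-type 12.75 and 11.94, and this difference of 1.25 ± 0.42 also did not pass (limma adjusted p = 0.74). Gadd45b (chr10:80930091-80932204), induced by TGF-beta and NF-kB signalling, read 7.50 and 8.53 in knockout AICAR and 7.84 and 7.74 in wild-type AICAR, which overlapped (0.22 ± 0.64). Its arrays spanned 5.27 to 8.53 over the study, with the lowest not detected, and its within-group SD of 0.77 was the largest of the 9 genes.

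**Figure D2:**
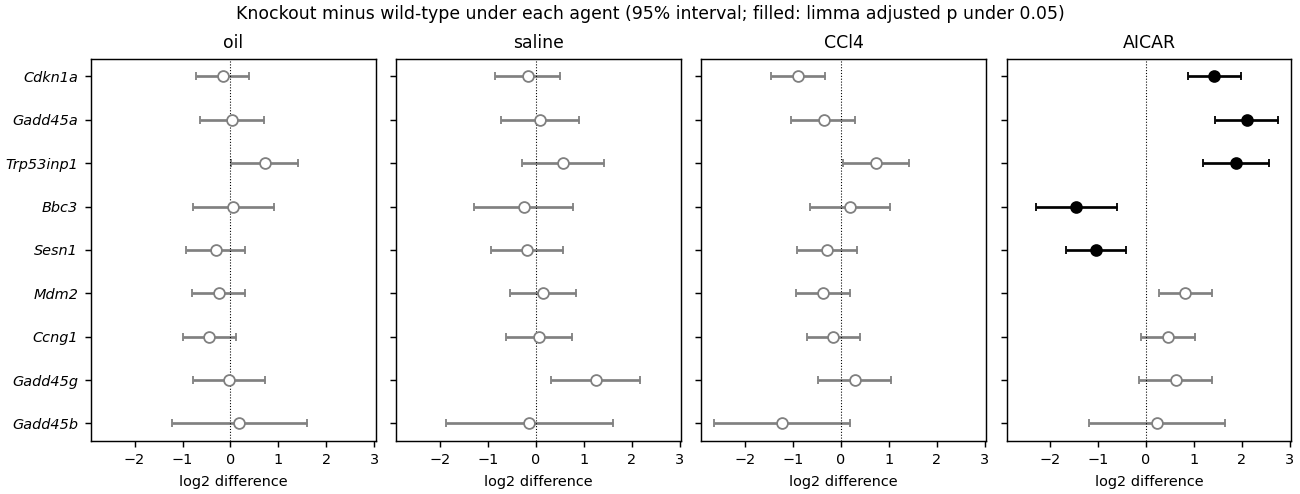
Knockout minus wild-type log2 difference of the 9 tested genes under each agent, with 95% intervals and filled points where the limma adjusted p is under 0.05. The 5 filled points all lie in the AICAR panel, from -1.46 for Bbc3 to 2.10 for Gadd45a.

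**Figure D3:**
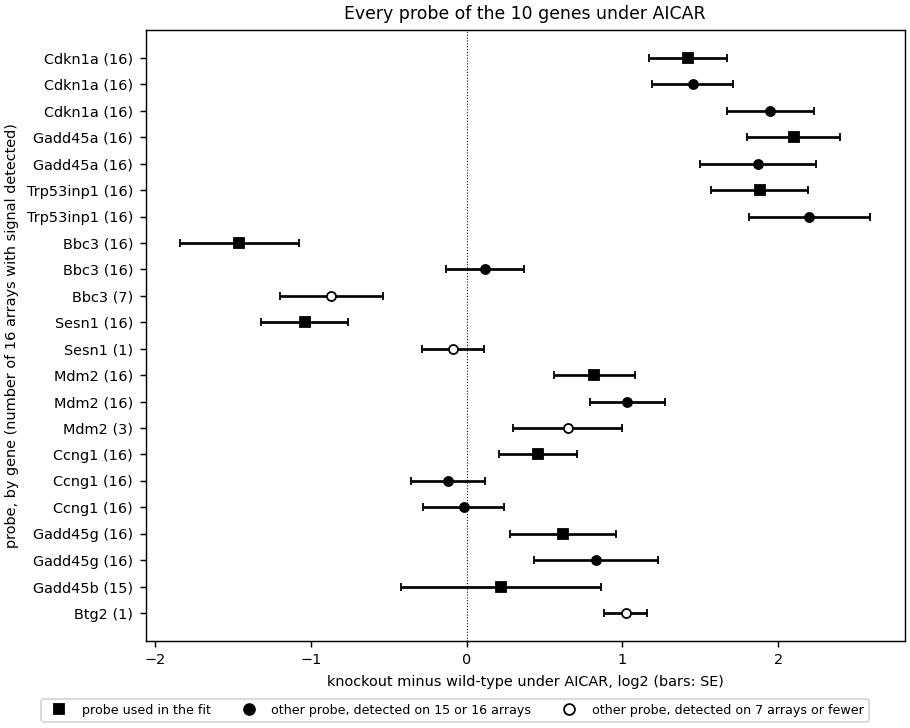
Knockout minus wild-type log2 difference under AICAR for all 22 probes, with SE bars and, in brackets, the number of the 16 arrays on which the probe was detected. The probes of Cdkn1a, Gadd45a and Trp53inp1 lie together between 1.42 and 2.20, whereas those of Bbc3 and Ccng1 fall on both sides of 0.

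In the comparisons without AICAR arrays no difference between the genotypes passed in the 9 genes. None was called between knockout and wild-type in oil, where 1.24% of features passed, in saline (0.132%), under CCl4 (1.29%) or over both vehicles (1.32%). At an unadjusted p of 0.05 from the limma fit, 1 gene passed in oil, 1 in saline, 2 under CCl4 and 2 over both vehicles, beside 15.7%, 4.79%, 11.7% and 12.4% of all features. The comparisons over both vehicles and over all 4 agents contain the arrays of the single-agent comparisons.

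Neither agent moved any of the 9 genes past the threshold against its own vehicle. For AICAR against saline, 1.12% of features passed in the knockout and 0.00882% in the wild-type, and for the difference of the 2 responses 0.291% passed. At an unadjusted p of 0.05 there were 4 genes in the knockout, 1 in the wild-type and 3 for the difference, beside 12.2%, 10.7% and 9.16% of all features. Both AICAR responses share arrays with the genotype comparisons under AICAR and in saline. The 9 genes had a median response of 0.56 in the knockout, where that of all features was -0.05, and of -0.10 in the wild-type, where it was 0.02. On the probes used, the arrays of 3 genes (Cdkn1a, Trp53inp1 and Sesn1) moved apart in opposite directions in the 2 genotypes, as did 12.8% of all features. Not all probes of Cdkn1a and Trp53inp1 showed this. Both knockout saline arrays, counted as 1 sample in the fit, entered this rule singly, for the 9 genes and for all features.

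For CCl4 against oil, 0% of features passed in either genotype and 0% for the difference of the responses, while 1057 (wild-type), 405 (knockout) and 463 (difference) reached an unadjusted p of 0.05 in the limma fit. The members had 1, 1 and 0 genes at that level, Cdkn1a in the wild-type and Gadd45g in the knockout. Gadd45g read higher under CCl4 than in oil on all arrays of both genotypes, by 0.45 ± 0.34 in the wild-type and 0.78 ± 0.34 in the knockout (limma adjusted p = 1), without passing. Between the vehicles, oil against saline over both genotypes, 0% of features passed, with 1174 at an unadjusted p of 0.05.

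**Figure D4:**
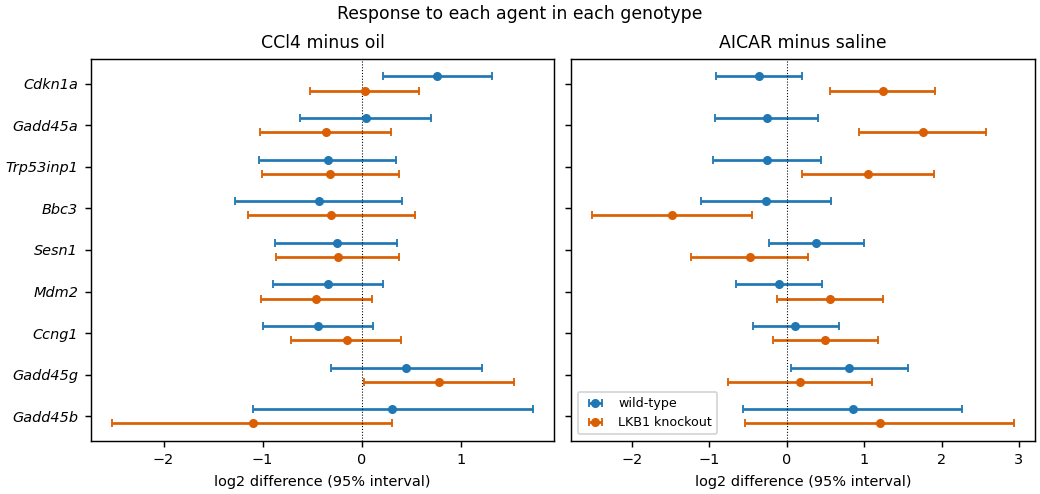
Log2 difference of CCl4 minus oil (left) and AICAR minus saline (right) for the 9 tested genes in wild-type (blue) and knockout (orange) livers, with 95% intervals. In the right panel the knockout interval of Cdkn1a, Gadd45a and Trp53inp1 lies above 0 and that of Bbc3 below it, and no adjusted p of these comparisons is under 0.05.

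Related genes were grouped in lists chosen with earlier results of these data known, and are described under AICAR, knockout against wild-type. Of 8 tested regulators of p53, 0 were called (none at an unadjusted p of 0.05) and their median was 0.01. Trp53 itself and Atr have no probe with that symbol, so the level of p53 RNA is not analysed here. Of 14 other p53 targets of arrest and repair, 1 was called, with a median of 0.02, and of 10 other p53 targets of cell death, 1 was called, with a median of -0.09.

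The called arrest gene was Plk3, a kinase of the stress response. It read 13.90 and 13.81 in knockout AICAR and 10.46 and 10.87 in wild-type AICAR, and differed by 3.19 ± 0.35 (limma adjusted p = 0.00075). Like the Trp53inp1 probe used, it was higher on the knockout arrays under every agent, by 1.88 ± 0.19 over all 4 (limma adjusted p = 0.00017). Among tested genes with a symbol, Plk3 and Rgs2 were the 2 whose pattern was most like that of Trp53inp1, with Pearson r = 0.93 over the 15 samples. The called death gene was Bid, which links death receptors to mitochondria. It read 8.23 and 7.04 in knockout AICAR and 9.33 and 9.38 in wild-type AICAR, lower by -1.72 ± 0.33 (limma adjusted p = 0.011), and did not pass without either wild-type AICAR array or the second knockout AICAR array (highest adjusted p = 0.08).

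Of 13 other growth arrest genes 5 were higher and 0 lower in the knockout under AICAR, with a median of 0.45. Tob2, a relative of Btg2, read 9.65 and 9.80 against 7.66 and 7.85 and differed by 1.97 ± 0.29 (limma adjusted p = 0.0031). Tob1 differed by 1.69 ± 0.25 (limma adjusted p = 0.0027), Ppp1r15a, the phosphatase subunit also named Gadd34, by 1.24 ± 0.26 (limma adjusted p = 0.018, not passed when any 1 of the 4 AICAR arrays was left out). Cdkn2b, another inhibitor of cyclin-dependent kinases, read 8.24 and 8.41 in the knockout and 6.79 and, not detected, 5.23 in the wild-type (limma adjusted p = 0.03). It did not pass without the second wild-type or either knockout AICAR array. Of 10 proliferation genes 0 were called, 1 at an unadjusted p of 0.05, and 8 lay above 0 and 2 below, with a median of 0.14. That gene, Ccnd1, the D-type cyclin of G1 phase, read 12.68 and 12.74 in the knockout and 14.46 and 14.41 in the wild-type, without passing (-1.73 ± 0.56, limma adjusted p = 0.089).

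Genes inducible by stress kinases and NF-kB gave the highest count, 9 of 12 higher and 0 lower, with a median of 1.68. Dusp1, the phosphatase that switches off p38 and JNK, read 14.45 and 14.81 in knockout AICAR and 11.33 and 11.13 in wild-type AICAR (3.40 ± 0.29, limma adjusted p = 0.00015). Zfp36, which destabilizes inflammatory mRNAs, differed by 2.36 ± 0.27 (limma adjusted p = 0.00099). Fosb, a subunit of AP-1, was detected on both knockout and neither wild-type AICAR array and was at least 6.34-fold higher. Its test (limma adjusted p = 0.00011) used the measured wild-type AICAR values, which were not above background. For Dusp1 the response to AICAR itself differed between the genotypes, by 2.82 ± 0.46 (limma adjusted p = 0.035), a call lost in 10 of the 16 fits that left out an array. Without either wild-type AICAR array or the second wild-type saline array no feature passed this comparison. The 3 genes with a symbol most like Cdkn1a were Cwc22 (r = 0.92), Klc1 (0.90) and Jun (0.88), an AP-1 subunit. Jun was named after its values were seen, and a link between it and Cdkn1a was not tested.

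**Figure D5:**
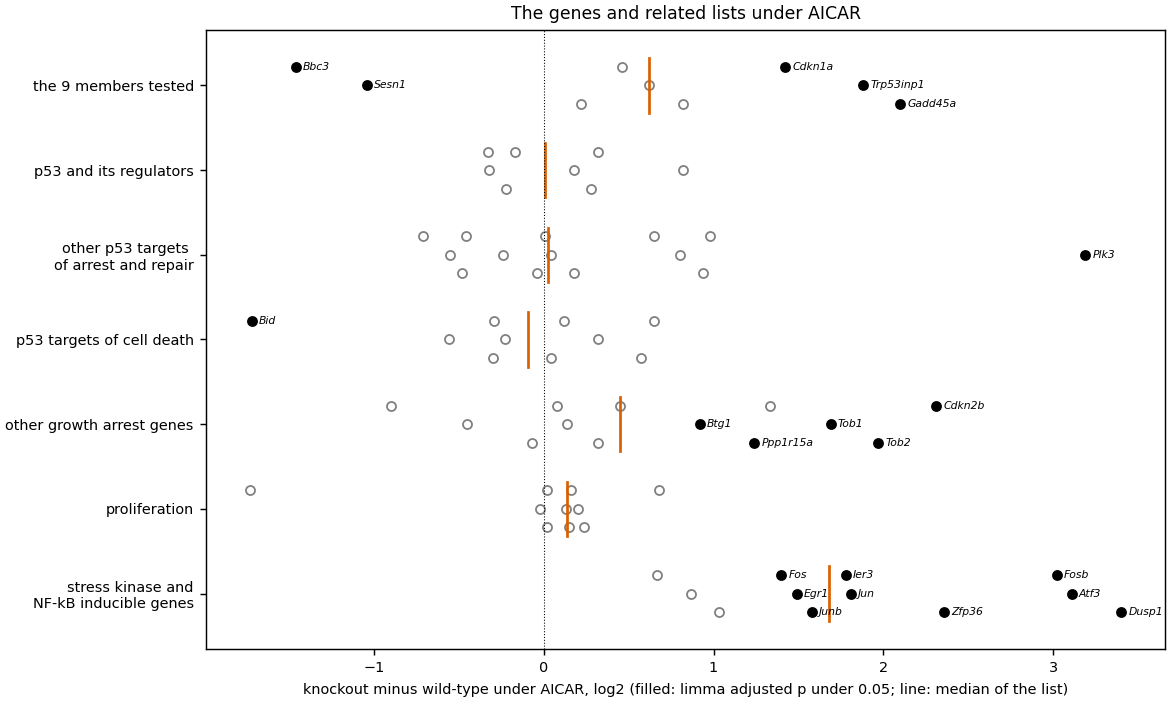
Knockout minus wild-type log2 difference under AICAR for the 9 genes and the 6 related lists, 1 point per gene, filled and named where the limma adjusted p is under 0.05, with a line at each list's median. The stress kinase and NF-kB list lies furthest to the right with a median of 1.68, and the Fosb point is a fitted value against arrays not above background.

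Among the other most alike genes with a symbol by the same measure were Ccnt1 for Gadd45a (r = 0.86), Tmco6 for Bbc3 (0.93), Gorasp1 for Sesn1 (0.93), Eif4a2 for Ccng1 (0.89), Kdm3a for Mdm2 after Ccng1 (0.87), Ptpn1 for Gadd45g (0.86) and Sptlc2 for Gadd45b (0.86). Within the 9 genes, Bbc3 ran against Cdkn1a (r = -0.70) and Sesn1 against Trp53inp1 (r = -0.64). All are descriptions over 15 samples that share groups.

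Markers of other liver cells also differed under AICAR, and their part in the results was not tested. In whole tissue, fewer cells of a type and less RNA per cell cannot be told apart. Of the 5 hepatocyte markers 0 were called. The probe for Alb, serum albumin, lay near background, at 6.64 and 6.83 in wild-type AICAR and at 6.15 and, not detected, 5.23 in knockout AICAR. The other 4 were detected on all AICAR arrays. The summed normalized signal of the 5 was 186000 to 189000 in wild-type and 196000 to 203000 in knockout livers, and it comes largely from Apoa1 and Ttr, which read up to 15.96 and 16.10 where the highest value of any probe was 16.1, so it has little room to show a change. The 6 stellate and fibroblast markers summed to 3160 to 4120 in the wild-type and 670 to 1260 in the knockout, and Col1a1 (-2.52) and Acta2 (-3.26) passed (limma adjusted p = 0.037 for each). Neither passed when any 1 of the 4 AICAR arrays was left out. Lrat was detected on none of the 4 AICAR arrays and Col1a2 on 1.

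The 6 neutrophil markers summed to 4500 to 6800 in the wild-type and 1540 to 3940 in the knockout, with 0 called. The 2 erythroid markers summed to 44200 to 49200 and to 10400 on both knockout arrays, and Hba-a1 was called lower (-2.21, limma adjusted p = 0.045), a call lost in 12 of the 16 fits that left out an array. The erythroid sum comes largely from Hba-a1, which read 15.57 and 15.42 in wild-type AICAR and 13.28 on both knockout AICAR arrays. The other erythroid marker, Alas2, overlapped, at 8.85 and 8.77 in the wild-type and 8.66 and 8.90 in the knockout. The 3 tested Kupffer cell and macrophage markers summed to 6140 to 8800 and 3790 to 5140. Sums of the 5 sinusoidal endothelial markers were 7570 to 10800 and 8190 to 9210. None of these was called. Of the Kupffer cell and macrophage markers 1 was higher and 2 were lower in the knockout by the fitted difference. Marco overlapped, at 8.25 and 7.61 in the wild-type and 7.53 and 8.63 in the knockout. The 2 tested T and B cell markers summed to 598 to 624 and 340 to 440, and the 2 tested cholangiocyte markers to 230 to 233 and 360 to 759. The cholangiocyte markers went in opposite directions. Sox9 read 7.52 and 7.55 in the wild-type and 8.31 and 9.51 in the knockout. Krt7 read 5.61 and, not detected, 5.44 in the wild-type, and 5.39 and 4.97 in the knockout, where neither array detected it. Cd5l, Krt19, Cd8a, Cd79a and Ms4a1 were not detected on at least 2 arrays.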

How the data were processed

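Total RNA of whole liver was hybridised to 1-colour Illumina mouse arrays, per the labels. The authors deposited 1 table with, for each probe and array, a linear intensity without normalization across arrays and, beside it, a detection p-value (smallest step 1 in 798). The submitters' processing notes name GenomeStudio without a version. Groups follow the labels' genotype and agent.

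In R 4.3.3 with limma 3.58.1, limma's neqc corrected the background (normexp, offset 16, control signals estimated through the detection p-values), quantile normalized and took log2. Probes with detection p under 0.05 on at least 2 arrays were kept (15411), with the probe of highest mean used per gene: 11338 features, 10436 with a symbol. Of 25697 probes, 23978 had 1 symbol in the platform annotation, 1719 none and 0 several. Probes are credited to genes by that annotation, and 23962 matched the mouse reference gene table, changing 0 symbols. A model of group means over 8 groups and 15 samples (7 residual and 3.76 prior degrees of freedom) gave 13 two-sided comparisons, adjusted by Benjamini and Hochberg, threshold 0.05. The code was tested on simulated data. Depth does not apply to arrays; precision is set by their number.

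The members and lists were chosen with earlier results of these data known. Every member is named; of each list, called genes up to 4 by p-value are named, otherwise those with the smallest p-values; the 3 most alike genes by Pearson r were computed for each member, and the first is printed for most. Ccnd1 and Jun were named after their values were seen. The 11 alternatives were, in turn, uncorrected background, centring on medians, the normalized intensities the authors deposited in the series value table (method not stated), no detection filter, a stricter one (p under 0.01 on at least 8 arrays), testing all kept probes singly, robust trended variance, weighting of arrays, both knockout saline arrays as samples, the replicate number as a block, and only the arrays compared; each array was also left out in turn.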

Additional observations from a re-analysis of the deposited data

Results flagged for a closer look

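For 3 genes the arrays moved in opposite directions from saline to AICAR in the 2 genotypes, upward in the knockout and downward in the wild-type for Cdkn1a and Trp53inp1, and the reverse for Sesn1. The difference of the responses, knockout minus wild-type on the log2 scale, was 1.59 for Cdkn1a, 1.31 for Trp53inp1 and -0.86 for Sesn1, and none passed the limma test of that difference (adjusted p = 0.19, 0.45 and 0.6). Such opposite movement occurred in 12.8% of all features. Both knockout saline arrays, counted as 1 sample in the fit, were taken singly for it.

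The Btg2 probe, which did not enter the test, was detected on the second knockout AICAR array at 5.82 on the log2 scale, above all vehicle arrays, the highest of which read 5.02. The second Sesn1 probe, also outside the test, was detected on the second wild-type AICAR array at 5.63, against 5.42 on the highest vehicle array. Both signals are close to background.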

How the results depend on the processing

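Values called in the reported fit or in an alternative or leave-out kept their direction between them. In the counts of members called between knockout and wild-type under AICAR, 5 became 3 with only the arrays compared (Cdkn1a, Gadd45a and Trp53inp1), 6 without background correction, with the authors' values and with array weights (Mdm2 added in each), and 1 to 6 when each array was left out (Mdm2 added without either wild-type oil array). The 1 was Gadd45a alone, without the second wild-type AICAR array; without the first, the first knockout AICAR array, either knockout CCl4 or either wild-type saline array there were 3. Leaving out an array costs precision in itself, and the array left alone in its group is assumed to vary like the others. Leaving both knockout saline arrays out, an alternative chosen after seeing the data, gave the same 5 genes. Gadd45a was called in all of these, Cdkn1a and Trp53inp1 with each of the 11 alternatives, and Bbc3 and Sesn1 were lost in 11 and 12 of all 28 settings. Over all 4 agents 1 became 3 with both knockout saline arrays as samples and 1 to 2 in the leave-outs; using only the arrays compared changes nothing there and was not run. For AICAR against saline in the knockout, 0 became 2 without background correction (Cdkn1a and Gadd45a), 2 with the authors' values, 1 with trended and robust variance (Gadd45a), 3 with both knockout saline arrays as samples, and 0 to 1 in the leave-outs. For the difference of the AICAR responses, 0 became 2 with both knockout saline arrays as samples.

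Counts over all features moved by more than 1.5 times in some settings: 1 to between 0 and 219 for AICAR in the wild-type (219 with array weights), 127 to 194 without background correction and 652 with both knockout saline arrays as samples for AICAR in the knockout (83 and 53 without its first and second AICAR array), 33 to between 0 and 118 for the difference of these responses, 141 to between 17 and 243 in oil, 15 to between 0 and 94 in saline, 146 to between 44 and 222 under CCl4, 854 to 1283 under AICAR with array weights (228 in the lowest leave-out), 150 to between 67 and 433 over both vehicles, 1044 to 1615 over all 4 agents with both knockout saline arrays as samples (635 in the lowest leave-out), and 0 to 60 between vehicles.

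With the replicate number as a block, 1 member called over all 4 agents became 2 (Sesn1 added) and no other count of members moved. The numbers share no stated source. Of 28 pairs of groups, 6 had correlated deviations above 0.1. The values ran from -0.4 (wild-type oil with knockout oil) to 0.48 (knockout oil with knockout CCl4). From 2 arrays per group they cannot tell whether arrays of the same number shared a step, and no conclusion is drawn. With 2 arrays per group and 1 effective knockout saline sample, comparisons with knockout saline are the least precise, and the Btg2 probe, detected on 1 of 16 arrays, cannot be resolved near background.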
